A study of Mus musculus with 78 samples.

Results

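Polyamine metabolism was followed through 9 mouse genes, chosen by symbol: Odc1, Amd1, Srm and Sms of the synthesis route, Smox and Sat1 of the breakdown route, and Oaz1, Oaz2 and Azin1, which control ornithine decarboxylase. All 9 were found among the 36904 gene IDs of the deposited table, and all 9 were among the 18218 genes that passed a filter on low counts. Their transcripts were measured by bulk RNA sequencing of the soleus, a calf muscle used for posture, in 78 libraries of C57Bl/6 mice, 30 labelled female and 48 labelled male. The labels name no engineered allele. The treated group was 12 males of 28 months fed CaAKG, calcium alpha-ketoglutarate, at 2% of the feed (alpha-ketoglutarate is an intermediate of the citric acid cycle). Its control was 10 males of 28 months on control feed. Both are in labelled batch 2, together with 7 control females of 28 months. All other mice were on control feed in batch 1. Its males gave 6, 6, 9 and 5 replicates at 6, 12, 20 and 28 months, and its females 4, 6, 6 and 6 at the same ages. The label M28 was read as 28 months. Mice of 6 and 12 months came from another supplier than mice of 20 months, so supplier and age cannot be told apart between them.

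Polyamines (putrescine, spermidine and spermine) are small positively charged molecules that bind nucleic acids and that growing cells need for translation. Ornithine decarboxylase makes putrescine, S-adenosylmethionine decarboxylase supplies the aminopropyl groups, and spermidine synthase and spermine synthase add them. Antizymes bind ornithine decarboxylase and send it to the proteasome, and the antizyme inhibitor binds the antizyme instead. In mouse skeletal muscle, Odc1, Amd1 and Smox are known to respond to androgens, and Smox is known to be low in wasting muscle.

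The deposited values were expected counts, and levels are given here as CPM, counts scaled to a common library size with TMM factors. Library totals ran between 19.5 M and 81.6 M counts (M for mega), so the lowest-expressed members, Srm and Smox, rested on at least 201 and 220 counts in each replicate. In 5 libraries the transcripts of the sex chromosomes went against the sex label: 12-month female replicates 1 and 4, 6-month female replicate 3, 12-month male replicate 3 and 6-month male replicate 3. In 9 libraries summed skin (12 keratinocyte genes) or marrow (14 neutrophil genes) markers exceeded 100 CPM: 28-month female replicates 8, 10 and 12 of batch 1, 28-month control male replicate 4 of batch 2, 12-month female replicate 5, and CaAKG replicates 6, 7, 8 and 10. These 14 are called doubted libraries below, and some counts of changed members are also given without them. All 8 slow-fibre markers were present in each replicate, with sums between 7897 and 48755 CPM.

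By level per length the antizymes came first. Per kilobase of transcript the medians over 77 replicates were 269 CPM for Oaz1, 117 CPM for Oaz2, 54.1 CPM for Odc1, 25.2 CPM for Amd1, 16.5 CPM for Sat1, 13.2 CPM for Sms, 8.92 CPM for Azin1, 7.18 CPM for Srm and 5.32 CPM for Smox. Oaz1 stood above Oaz2 in 77 of 77 replicates, Oaz2 above Odc1 in 76, Odc1 above Amd1 in 74, and Sms above Azin1 in 76. Other neighbours changed places more often: Amd1 stood above Sat1 in 65 replicates, Srm above Smox in 62, Sat1 above Sms in 58 and Azin1 above Srm in 53. Smox varied most, with a coefficient of variation of 75.6% over the replicates, followed by Amd1 with 48.3%, while Oaz2 and Sms had 17.5% and 18%.

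**Figure D1:**
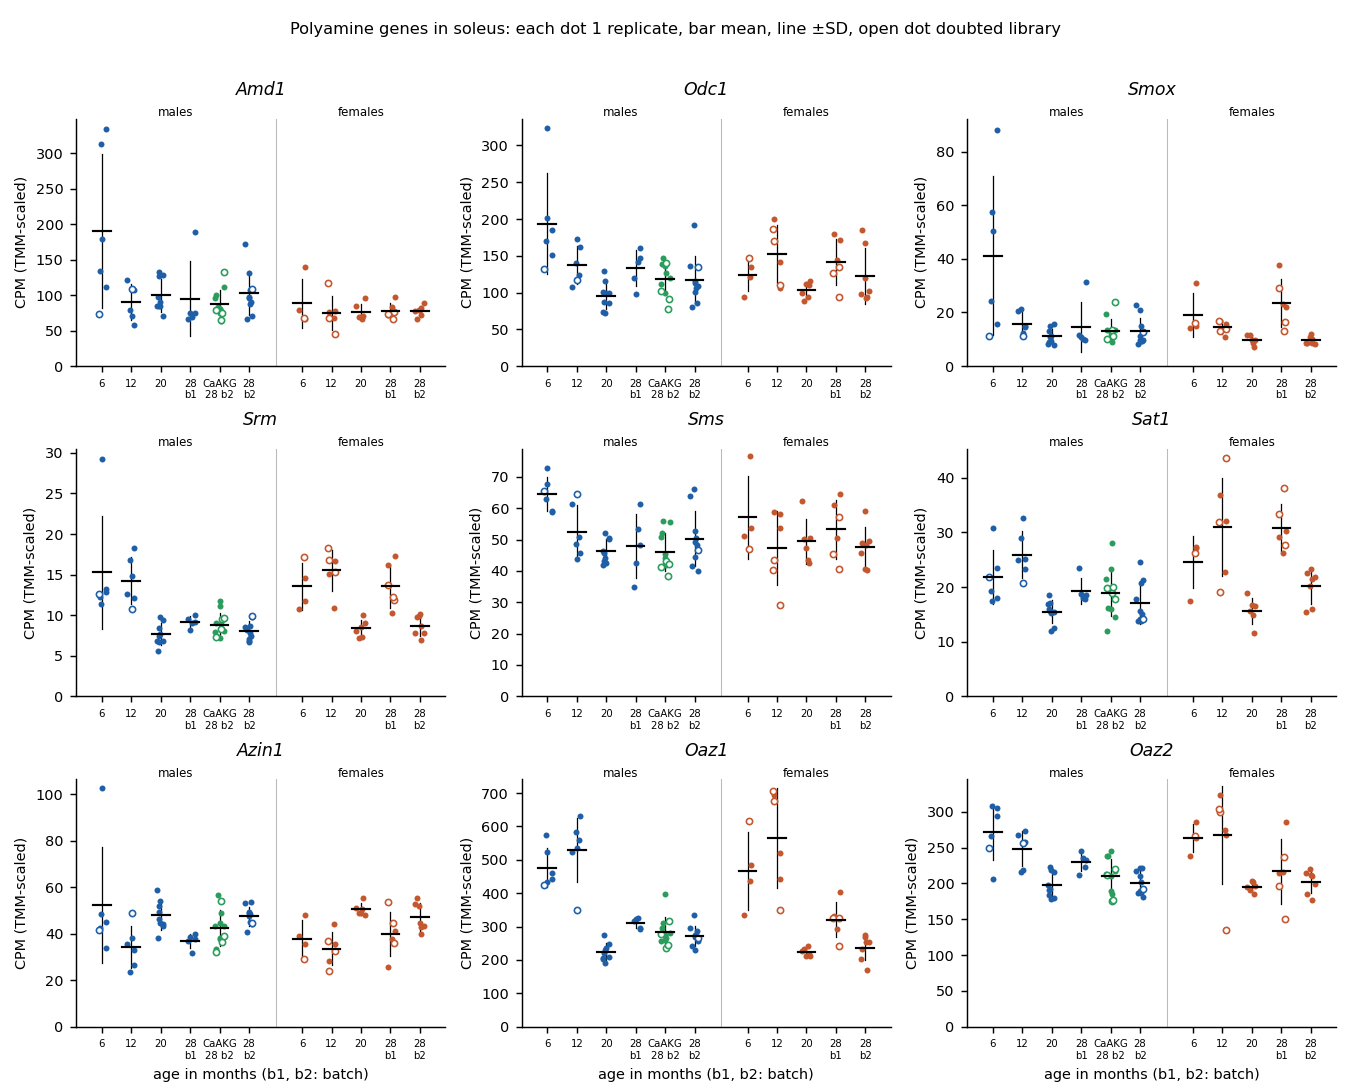
Level of each polyamine gene in CPM (y axis, from 0) by age in months and batch (x axis), males left and females right in each panel, CaAKG males in green. Each dot is 1 replicate, bars are means, lines ±SD, and open dots are the doubted libraries; Amd1 and Smox spread widely in 6-month males, while Oaz1 is low in both sexes at 20 months.

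The bases before the start site are shown for Odc1 and Amd1, which start the route, for Smox, whose changes against 6 months in males were the widest, and for Oaz1, the member with the smallest adjusted p at 20 against 6 months in both sexes. They are the 250 bases upstream of the RefSeq start (build GRCm38.p6), which the RefSeq table gives for 7 of the 9 members (all but Srm and Azin1). The Amd1 window is chr10:40302189-40302438 (minus strand) and the Odc1 window chr12:17544623-17544872 (plus strand). Smox has chr2:131491612-131491861 and Oaz1 chr10:80826406-80826655 (both plus strand). The RefSeq start can differ from the start of the gene coordinates printed below. The Smox window lies inside those coordinates, and so does the end of the Odc1 window. Capitals mark the motifs GGGCGG (GC box) and CCAAT on either strand.
Amd1: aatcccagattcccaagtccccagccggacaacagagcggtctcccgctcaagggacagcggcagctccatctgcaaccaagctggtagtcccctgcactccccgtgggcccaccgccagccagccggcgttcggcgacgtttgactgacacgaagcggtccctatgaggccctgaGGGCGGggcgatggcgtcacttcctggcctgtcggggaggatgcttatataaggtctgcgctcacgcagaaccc
Odc1: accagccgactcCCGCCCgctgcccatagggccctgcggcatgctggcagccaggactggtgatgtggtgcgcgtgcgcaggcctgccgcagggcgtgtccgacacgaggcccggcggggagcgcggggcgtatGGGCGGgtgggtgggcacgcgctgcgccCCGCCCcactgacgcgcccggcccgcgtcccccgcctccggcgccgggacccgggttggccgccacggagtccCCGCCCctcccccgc
Smox: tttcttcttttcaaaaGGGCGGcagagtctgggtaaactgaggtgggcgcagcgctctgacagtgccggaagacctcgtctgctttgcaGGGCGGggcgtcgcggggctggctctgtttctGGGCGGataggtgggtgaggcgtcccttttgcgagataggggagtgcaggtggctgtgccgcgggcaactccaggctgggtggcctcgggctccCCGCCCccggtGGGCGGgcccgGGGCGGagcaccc
Oaz1: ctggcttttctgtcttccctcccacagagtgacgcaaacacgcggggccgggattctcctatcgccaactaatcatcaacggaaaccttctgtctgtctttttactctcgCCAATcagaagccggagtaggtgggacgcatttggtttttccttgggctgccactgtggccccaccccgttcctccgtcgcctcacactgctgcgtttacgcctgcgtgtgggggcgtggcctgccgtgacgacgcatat
Amd1 held 1 GC box, Odc1 held 4 and Smox held 6, and Oaz1 held 1 CCAAT box and no GC box. Among 32851 upstream windows of this length 32.7% held a GC box, 4.09% held 4 or more and 33.8% held CCAAT. The windows of Odc1, Smox, Amd1 and Oaz1 were 80%, 68%, 64.4% and 58% G or C, against a median of 52.4% over all windows. The other motifs searched on both strands were CACGTG (in 6.02% of all windows), TGACGTCA (1.55%), TATAAA (12.4%), AGAACA (16.1%) and the full androgen or glucocorticoid response element (0.00913%), of which AGAACA is one arm; none of these letters were in the 4 windows shown.

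Each older group was set against 6 months of the same sex. Against 6-month males, 8 of the 9 members were lower in 20-month males, where 22% of all genes tested were lower, and 7 of 9 were lower in 28-month males of batch 1, where 9.38% of all genes were lower. In 12-month males 3 of 9 were lower, against 6.82% of all genes. No member was higher in these 3 comparisons. The median log2 fold change of the members was -0.93 at 20 months, -0.54 at 28 months and -0.30 at 12 months, each against a median of 0.02 over all genes. In females 5 of 9 were lower at 20 months, against 17.8% of all genes, 1 of 9 at 28 months of batch 1, against 9.04%, and 0 of 9 at 12 months by edgeR's quasi-likelihood test, against 0.231% of all genes called in either direction (0 members by DESeq2, and 0 at an unadjusted p under 0.05). The median of the members in females was -0.43 at 20 months and 0.00 at 28 months, and that of all genes 0.00 and 0.09.

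**Figure D2:**
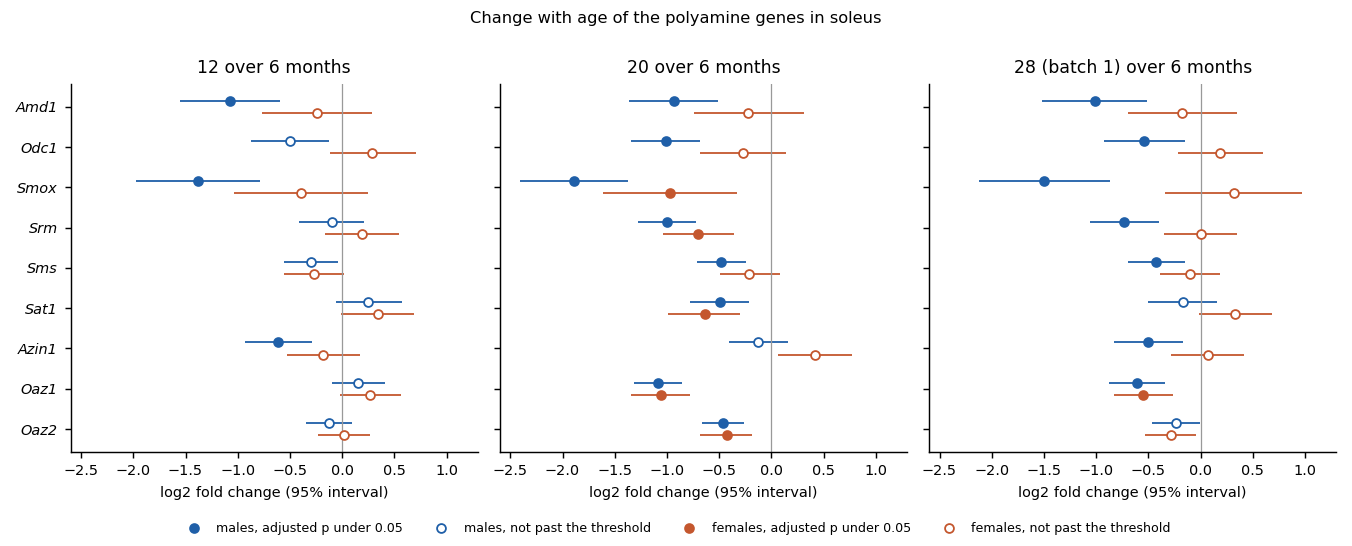
Log2 fold change (x axis, 95% interval) of each polyamine gene (y axis) at 12, 20 and 28 months (batch 1) over 6 months, males in blue above females in orange. Filled dots passed an adjusted p of 0.05: at 20 months 8 members are filled in males and 5 in females, and at 28 months 7 in males and 1, Oaz1, in females.

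Without the doubted libraries the members lower in males were 8 at 20 months (all genes 24.9%), 8 at 28 months (all genes 13.5%) and 5 at 12 months (all genes 14.0%), where Odc1 and Sms joined Amd1, Smox and Azin1. In females they were 5 at 20 months (all genes 17.3%) and 0 at 28 months (all genes 2.75%). With offsets for transcript length and GC the count at 20 months was 7 in males (all genes 20.4%) and 1 in females (all genes 10.7%). In the bulk RNA of a muscle, fewer cells of a type and less RNA per cell cannot be told apart.

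Odc1 (chr12:17544794-17551505, plus strand) encodes ornithine decarboxylase, the first step of the route. In males its lowest, median and highest values were 133, 177 and 324 CPM at 6 months, 107, 132 and 173 CPM at 12 months and 71.6, 99.4 and 129 CPM at 20 months, and the 5 males of 28 months in batch 1 had 97.5, 119, 142, 147 and 160.0 CPM. All 9 males of 20 months lay below all 6 males of 6 months, with a log2 change of -1.01 (SE 0.17, adjusted p = 5.4e-07). At 28 months the male change was -0.54 (SE 0.20, adjusted p = 0.048) with overlapping ranges, and it lost its call when any of 7 single libraries was left out. One of those is 6-month male replicate 1, without which the change was -0.38. It had the highest Odc1 of all replicates, 324 CPM. Its summed macrophage markers (10 of 10 measured) were at 395 CPM, against 67.7 to 120.5 CPM in the other 5 males of 6 months. Over the 77 replicates Odc1 had a Spearman correlation of -0.05 with this sum. The part of the sum in the Odc1 value was not tested. In females the 4 values at 6 months were 93.7, 122, 134 and 147 CPM, and lowest, median and highest values were 107, 156 and 200.4 CPM at 12 months, 88.9, 104 and 116 CPM at 20 months and 94.2, 139 and 180.1 CPM at 28 months. These female ranges overlapped, and no female comparison with 6 months passed the threshold (-0.27 at 20 months, adjusted p = 0.35).

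Amd1 (chr10:40287458-40302186, minus strand) encodes S-adenosylmethionine decarboxylase, which supplies the aminopropyl groups. The lowest, median and highest values in males were 73.1, 157 and 334 CPM at 6 months, 57.8, 92.5 and 122 CPM at 12 months and 70.0, 90.5 and 133 CPM at 20 months, with 66.1, 68.8, 74.7, 74.9 and 189 CPM at 28 months in batch 1. In 6-month males the gene was high and uneven: replicates 4 and 6 exceeded 300 CPM, and the lowest value, 73.1 CPM, was in replicate 3, whose sex transcripts go against its label. Ranges overlapped at each age, and the log2 change was -1.07 (SE 0.24, adjusted p = 0.0024) at 12 months, -0.93 (SE 0.22, adjusted p = 2.3e-04) at 20 months and -1.01 (SE 0.26, adjusted p = 0.0043) at 28 months. Leaving out single libraries kept all 3 calls, between -1.46 and -0.73 in all. With the compared groups alone the calls ended at 12 months (-1.09, adjusted p = 0.062) and at 28 months (-1.0, adjusted p = 0.091), and the one at 20 months held (-0.96, adjusted p = 0.0036). In females the values were 66.9, 68.2, 78.7 and 139.6 CPM at 6 months, with lowest, median and highest values of 45.0, 71.7 and 117 CPM, 66.8, 69.7 and 96.5 CPM and 65.6, 75.4 and 97.4 CPM at 12, 20 and 28 months. No female change passed (-0.22 at 20 months, adjusted p = 0.59; -0.18 at 28 months, adjusted p = 0.68). Without 6-month female replicate 4, at 139.6 CPM, they were 0.09 (adjusted p = 0.86) at 20 months and 0.14 (adjusted p = 0.79) at 28 months. Amd2, a near-identical copy among which the authors' counting splits reads by estimate, had a mean of 3.02 CPM in 6-month males and at most 2.0 CPM in the other groups.

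Srm (chr4:148591503-148594993, plus strand), the spermidine synthase gene, was lower in 20- and 28-month males and in 20-month females. In males its lowest, median and highest values were 11.3, 12.7 and 29.3 CPM at 6 months, 10.7, 13.8 and 18.3 CPM at 12 months and 5.56, 7.49 and 9.79 CPM at 20 months, and 8.22, 9.03, 9.19, 9.58 and 10.0 CPM at 28 months in batch 1. The 20- and 28-month males all lay below all 6-month males, at -1.0 (SE 0.14, adjusted p = 1.5e-08) and -0.73 (SE 0.17, adjusted p = 0.0019), while 12-month males did not differ past the threshold (-0.10, adjusted p = 0.77). The 29.3 CPM at the top of the 6-month males was again replicate 1, and without it the calls held at -0.74 and -0.48. In females the 6-month values were 10.8, 11.7, 14.5 and 17.2 CPM, and those of 12, 20 and 28 months had lowest, median and highest values of 10.9, 16 and 18.2 CPM, 7.24, 8.26 and 10.0 CPM and 10.3, 12.9 and 17.3 CPM. The 20-month females lay below all 6-month females, at -0.70 (SE 0.18, adjusted p = 8.2e-04), and 28-month females were at 0.00 (adjusted p = 1.0). With length and GC offsets the female 20-month change was -0.19 (adjusted p = 0.55) and the male one -0.57 (adjusted p = 0.0011).

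Sms (chrX:157443855-157492287, minus strand) is the spermine synthase gene, on the X chromosome. In males its lowest, median and highest values were 59, 64.3 and 72.9 CPM at 6 months, 43.9, 49.7 and 64.5 CPM at 12 months and 42, 45.9 and 52.1 CPM at 20 months, with 34.8, 42.5, 48.1, 53.5 and 61.5 CPM at 28 months in batch 1. No value of a 20-month male reached the lowest of the 6-month males, and the change was -0.48 (SE 0.12, adjusted p = 5.6e-04). At 28 months it was -0.43 (SE 0.14, adjusted p = 0.026), with overlapping ranges, and the call was lost without 28-month replicate 11, 28-month replicate 14 or 6-month replicate 6. With the length and GC offsets the changes were -0.79 (adjusted p = 3.0e-05) at 20 months and -0.56 (adjusted p = 0.038) at 28 months. In females the values were 46.9, 51.2, 53.8 and 76.6 CPM at 6 months and, as lowest, median and highest, 29.1, 48.6 and 58.9 CPM, 42.6, 48.8 and 62.5 CPM and 40.7, 53.9 and 64.7 CPM at 12, 20 and 28 months, with no change past the threshold.

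Smox (chr2:131491496-131525922, plus strand) encodes spermine oxidase, which turns spermine back into spermidine. In males its lowest, median and highest values were 11.3, 37.2 and 88.1 CPM at 6 months, 11.2, 14.8 and 21.1 CPM at 12 months and 7.73, 10.7 and 15.6 CPM at 20 months, and the 28-month males of batch 1 had 9.65, 9.93, 10.7, 11.5 and 31.2 CPM. In 6-month males replicates 1, 4 and 6 stood above 50 CPM and no male of another group reached 32 CPM, but the lower 6-month values overlapped with those of every older male group. The log2 fold changes were -1.38 (SE 0.30, adjusted p = 0.0017) at 12 months, -1.89 (SE 0.27, adjusted p = 1.2e-08) at 20 months and -1.50 (SE 0.32, adjusted p = 9.1e-04) at 28 months, and no single library ended any of the 3 calls (range -2.11 to -1.01). With the compared groups alone they ended at 12 months (-1.39, adjusted p = 0.059) and at 28 months (-1.48, adjusted p = 0.053), and the one at 20 months held (-1.92, adjusted p = 7.0e-05). Females had 14.1, 14.9, 16 and 31 CPM at 6 months, and lowest, median and highest values of 10.8, 14.7 and 16.8 CPM at 12 months, 6.92, 9.81 and 11.7 CPM at 20 months and 13.0, 22.6 and 37.8 CPM at 28 months. All 20-month females were below all 6-month females (-0.97, SE 0.33, adjusted p = 0.015), a call that was lost without 6-month female replicate 4, the one at 31 CPM (-0.64, adjusted p = 0.17), and it was -0.83 (adjusted p = 0.090) with the length and GC offsets. At 28 months females of batch 1 were at 0.32 (SE 0.33, adjusted p = 0.53). Over the 77 replicates Smox had a Spearman correlation of 0.42 with the summed fast-fibre markers, -0.44 with the slow-fibre markers and -0.63 with 8 endothelial markers. The part of these in the changes was not tested. The fast-fibre sum had a median of 26492 CPM in 6-month males, 22050 CPM at 12 months and 25394 CPM at 20 months. At 28 months in batch 1 it was 25476 CPM in males. In females it was 22739 CPM at 6 months, 16339 CPM at 12 months and 18220.5 CPM at 20 months. At 28 months in females it was 27825 CPM in batch 1 and 17231 CPM in batch 2. The highest sum of all replicates, 63131 CPM, was in 28-month female replicate 9 of batch 1, which had 37.8 CPM of Smox.

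Sat1 (chrX:155213132-155216449, minus strand) encodes the enzyme that acetylates spermidine and spermine ahead of their export or oxidation. In males lowest, median and highest values were 17.5, 20.5 and 30.8 CPM at 6 months, 20.8, 25.0 and 32.7 CPM at 12 months and 12.0, 15.6 and 18.6 CPM at 20 months, with 17.8, 18, 18.6, 18.7 and 23.6 CPM at 28 months in batch 1. The 6-month females had 17.4, 26.2, 27.2 and 27.4 CPM, and in older females lowest, median and highest values were 19.2, 32 and 43.7 CPM at 12 months, 11.7, 16 and 18.9 CPM at 20 months and 26.3, 29.8 and 38.2 CPM at 28 months. Among the ages of batch 1 the Sat1 median was lowest at 20 months in both sexes, with changes of -0.49 (SE 0.15, adjusted p = 0.0035) in males and -0.64 (SE 0.18, adjusted p = 0.0024) in females against 6 months, with overlapping ranges. With the length and GC offsets these were -0.16 (adjusted p = 0.36) and -0.27 (adjusted p = 0.26). At 28 months neither sex passed (-0.17 in males, adjusted p = 0.55; 0.33 in females, adjusted p = 0.19), and with the offsets 28-month females were higher than 6-month females at 0.54 (adjusted p = 0.025).

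Oaz1 (chr10:80826656-80829290, plus strand), the main antizyme, was the one member lower in both sexes at both 20 and 28 months. In males its lowest, median and highest values were 424, 453 and 573 CPM at 6 months, 351, 547 and 631 CPM at 12 months and 192, 221 and 273 CPM at 20 months, with 294, 296, 317, 324 and 327 CPM at 28 months in batch 1. The 6-month females had 334, 436, 484 and 616 CPM, and in older females lowest, median and highest values were 349, 598 and 705 CPM at 12 months, 211, 223 and 241 CPM at 20 months and 243, 326 and 403 CPM at 28 months. All replicates of 20 months lay below all of 6 months in each sex, at -1.09 (SE 0.12, adjusted p = 6.0e-12) in males and -1.06 (SE 0.14, adjusted p = 1.6e-08) in females. At 28 months males were at -0.61 (SE 0.14, adjusted p = 0.0015), again with no overlap, and females at -0.55 (SE 0.14, adjusted p = 0.0056). The female call at 28 months ended without 6-month female replicate 3, whose sex transcripts go against its label and which held the highest 6-month value (-0.36, adjusted p = 0.12), and without all doubted libraries (-0.25, adjusted p = 0.32). Offsets for length and GC left the 20-month changes at -0.59 (adjusted p = 1.0e-04) in males and -0.48 (adjusted p = 0.018) in females. At 28 months they left -0.42 (adjusted p = 0.049) in males and -0.36 (adjusted p = 0.11) in females, which ended the female call.

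Endothelial markers moved with Oaz1 in the opposite direction. The sum of 8 endothelial genes, each of them detected in every replicate, had a median of 544 CPM in 20-month males (452 to 662 CPM) against 142 CPM in 6-month males (96.1 to 201 CPM), and of 497 CPM in 20-month females (431 to 600 CPM) against 168 CPM in 6-month females (135 to 332 CPM). Over 77 replicates its Spearman correlation was -0.90 with Oaz1, -0.75 with Oaz2, -0.68 with Odc1, -0.68 with Srm, -0.63 with Smox, -0.57 with Sat1 and -0.54 with Sms, while it was -0.19 with Amd1 and 0.37 with Azin1. The replicates share tissue, processing and library scaling, and the part of the endothelial share in these results was not tested.

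Oaz2 (chr9:65668001-65690300, plus strand), a second antizyme, followed Oaz1 with smaller changes: over 77 replicates the pair had a Pearson correlation of 0.78 and a Spearman correlation of 0.80 (0.62 within groups, and a Pearson correlation of 0.75 without the 2 replicates farthest from the median of Oaz1). Lowest, median and highest values in males were 206, 279.8 and 308 CPM at 6 months, 216, 257 and 273 CPM at 12 months and 178, 192 and 223 CPM at 20 months, with 212, 223, 232, 235 and 245 CPM at 28 months in batch 1. The 6-month females had 239, 264, 266 and 286 CPM, and in older females lowest, median and highest values were 135, 287 and 324 CPM at 12 months, 186, 196 and 203 CPM at 20 months and 149.6, 216 and 286 CPM at 28 months. At 20 months the gene was lower in males (-0.46, SE 0.10, adjusted p = 1.2e-04) and in females (-0.43, SE 0.12, adjusted p = 0.0039), in females with no overlap. The offsets ended both calls, at -0.29 (adjusted p = 0.15) and -0.21 (adjusted p = 0.54).

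Azin1 (chr15:38487427-38519266, minus strand), the antizyme inhibitor, ran against Oaz1 over the 77 pooled replicates. The Pearson correlation was -0.48 and the Spearman correlation -0.51 (Pearson -0.57 without the 2 replicates farthest from the median). After each group's mean was removed the Spearman correlation was -0.14 (0.02 in control males and -0.24 in females). The contrast thus lay mostly between groups. Lowest, median and highest values in males were 33.9, 43.6 and 102 CPM at 6 months, 23.4, 34.2 and 48.8 CPM at 12 months and 38.3, 46.4 and 58.8 CPM at 20 months, and 31.8, 36.7, 37.9, 38.5 and 39.7 CPM at 28 months in batch 1. The males were lower at 12 months (-0.61, SE 0.16, adjusted p = 0.0092) and at 28 months (-0.50, SE 0.17, adjusted p = 0.033), and both calls were lost without 6-month male replicate 1, which held 102 CPM (-0.30 at 12 months and -0.23 at 28 months), the one at 28 months also without any of 3 other single libraries. With the compared groups alone both were lost as well (-0.62, adjusted p = 0.13, and -0.49, adjusted p = 0.16). In females the values were 29.3, 35.4, 38.8 and 48.0 CPM at 6 months and, as lowest, median and highest, 23.8, 34.0 and 44.2 CPM, 48.2, 49.7 and 55.4 CPM and 25.5, 39.3 and 53.8 CPM at 12, 20 and 28 months. All 20-month females stood above all 6-month females, at 0.42 (SE 0.18, adjusted p = 0.066), which did not pass. This value turned with the offsets, to -0.12 (adjusted p = 0.72), and in males at 20 months the main value of -0.13 (SE 0.15, adjusted p = 0.52) became -0.69 (adjusted p = 4.6e-05). Without 6-month male replicate 1 the male value at 20 months was 0.14 (adjusted p = 0.41), and leaving out single libraries gave -0.24 to 0.14. Without 6-month female replicate 4 the female value was 0.55 (adjusted p = 0.027), past the threshold. Azin1 has the longest transcript of the members, 4871 bases, and Oaz1 the shortest, 1071 bases. The part of transcript length in their contrast was not tested beyond these offsets.

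The ratio of Azin1 to Oaz1 CPM gives the balance of inhibitor to antizyme transcript within a library. In 20-month females it ran between 0.210 and 0.254 (median 0.226), against 0.0475 to 0.116 (median 0.0916) in 6-month females. In 20-month males it ran between 0.174 and 0.284 (median 0.211), against 0.0738 to 0.236 (median 0.0949) in 6-month males, of which only replicate 1 exceeded 0.1. At 28 months the batches differed, with medians of 0.179 in batch 2 against 0.119 in batch 1 for control males, and of 0.193 in batch 2 against 0.133 in batch 1 for females. No test was made on the ratio. It holds no correction for length: with the length and GC offsets the log2 changes at 20 against 6 months were -0.69 for Azin1 and -0.59 for Oaz1 in males, and -0.12 and -0.48 in females.

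**Figure D3:**
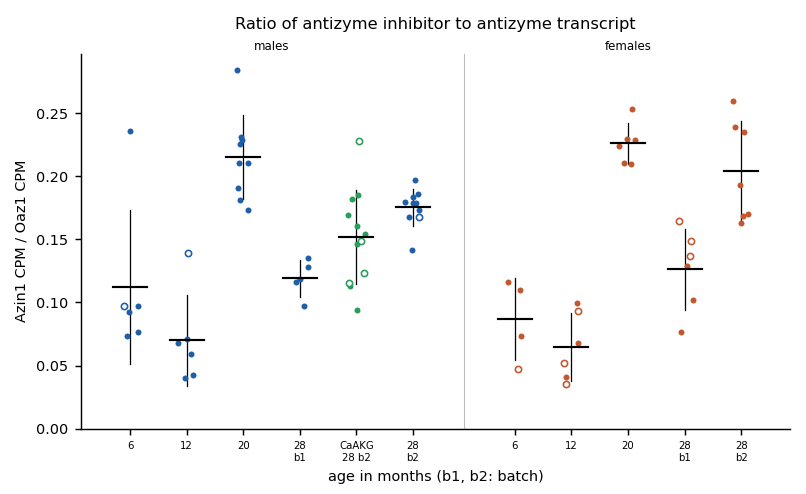
Ratio of Azin1 to Oaz1 CPM (y axis, no unit, from 0) by age in months and batch (x axis), males left and females right, with CaAKG males in green. Each dot is 1 replicate, bars are means and lines ±SD; the 20-month replicates lie between 0.174 and 0.284 in males and between 0.210 and 0.254 in females.

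At 28 against 20 months, in batch 1, some members were higher in females. In females 4 of 9 were higher, against 17.3% of all genes: Smox (1.28, SE 0.30, adjusted p = 9.1e-04), Sat1 (0.97, SE 0.16, adjusted p = 6.4e-06), Srm (0.70, SE 0.16, adjusted p = 6.4e-04) and Oaz1 (0.52, SE 0.13, adjusted p = 0.0021). All 6 females of 28 months lay above all 6 females of 20 months for each of these 4 genes. For non-overlap, here and elsewhere in the text, no share over all genes is given. In males 1 of 9, Oaz1, was higher (0.47, SE 0.12, adjusted p = 0.0045), against 8.25% of all genes, also with no overlap. Azin1 was at -0.35 (SE 0.16, adjusted p = 0.095) in females and -0.37 (SE 0.16, adjusted p = 0.095) in males. Without the doubted libraries, which include 3 of the 6 females of 28 months, 6 members were higher in females, against 15.1% of all genes, the added ones being Odc1 (0.72, adjusted p = 0.0077) and Oaz2 (0.33, adjusted p = 0.013), and Azin1 was lower (-0.50, adjusted p = 0.035). With the offsets 2 were higher, Smox and Sat1, against 7.72% of all genes, and in males the Oaz1 change was 0.16 (adjusted p = 0.75).

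Females of 28 months also differed between the batches. In batch 2 against batch 1, 4 of 9 members were lower, against 13.0% of all genes: Smox (-1.30, SE 0.29, adjusted p = 0.0013), Srm (-0.64, SE 0.15, adjusted p = 0.0026), Sat1 (-0.61, SE 0.15, adjusted p = 0.0037) and Oaz1 (-0.44, SE 0.13, adjusted p = 0.011). Smox had lowest, median and highest values of 8.28, 8.68 and 11.9 CPM in batch 2, against 13.0, 22.6 and 37.8 CPM in batch 1. The groups did not overlap. The fast-fibre sum had medians of 17231 CPM in batch 2, 27825 CPM in batch 1 and 18220.5 CPM in 20-month females. Its part in the Smox differences was not tested. With the offsets 1 member, Smox, was lower (-1.10, adjusted p = 0.015), against 5.36% of all genes. In males of 28 months 0 of 9 members differed between the batches by edgeR's test, against 1.02% of all genes (0 by DESeq2, and 1, Azin1, at an unadjusted p under 0.05, with a log2 fold change of 0.36 and no overlap). All females of 20 months are in batch 1, so the 28 against 20 month comparison could be made in batch 1 alone. Smox in 28-month females was above its 20-month level in batch 1 and near it in batch 2 (8.28, 8.68 and 11.9 CPM, against 6.92, 9.81 and 11.7 CPM at 20 months).

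Amd1 was the member that was higher in males. Averaged over the 5 age and batch strata, males were higher than females in Amd1 (0.49, SE 0.11, adjusted p = 0.0015) and lower in Sat1 (-0.27, SE 0.07, adjusted p = 0.0092), 2 of 9 members against 6.51% of all genes called in either direction. The Amd1 means were 191 ± 108 CPM (SD, n = 6) in males and 88.4 ± 34.6 CPM (SD, n = 4) in females at 6 months, and 99.9 ± 23.2 CPM (SD, n = 9) in males and 76.0 ± 11.8 CPM (SD, n = 6) in females at 20 months. In batch 2 at 28 months they were 103 ± 30.9 CPM (SD, n = 10) in males and 77.8 ± 6.96 CPM (SD, n = 7) in females. The log2 differences were positive at each of the 5 strata, with values of 1.11, 0.27, 0.39, 0.28 and 0.40 at 6, 12, 20 and 28 months of batch 1 and 28 months of batch 2, and the ranges of the sexes overlapped at each. The one at 28 months of batch 1 rested on male replicate 13, at 189 CPM, without which it was -0.16 (adjusted p = 0.82); the medians there were 74.7 CPM in males and 75.4 CPM in females. Once the skin or marrow libraries were left out, Sat1 lost its call in the average (-0.23, adjusted p = 0.058).

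Single ages were tested as well. At 6, 12 and 20 months and in batch 2 at 28 months edgeR's test called 0 of 9 members between the sexes, against 0%, 0.0329%, 0.220% and 1.3% of all genes. At 6 months 4 members had an unadjusted p under 0.05 in edgeR's test, and at the other 3 strata 0 did. DESeq2 called 1 member at 6 months, Amd1 (1.11, adjusted p = 0.022), and 0 at the others. Counts at an unadjusted p or by DESeq2, here and elsewhere, have no share of all genes beside them. The largest differences at 6 months were Smox (1.12, SE 0.34, adjusted p = 0.24), Amd1 (1.11, SE 0.28, adjusted p = 0.13) and Odc1 (0.64, SE 0.21, adjusted p = 0.30). Without the doubted libraries, among them 1 library of each sex at 6 months that went against its label, Amd1 and Odc1 were called at 6 months, 2 of 9 against 1.37% of all genes, at 1.18 (adjusted p = 0.028) and 0.83 (adjusted p = 0.049). When 6-month male replicate 1 was left out too, the Odc1 call was lost (0.59, adjusted p = 0.17) and Amd1 was at 1.22 (adjusted p = 0.029). In batch 1 at 28 months Srm (-0.56, SE 0.17, adjusted p = 0.036) and Sat1 (-0.68, SE 0.17, adjusted p = 0.014) were lower in males, 2 of 9 against 3.84% of all genes. Neither group of values overlapped between the sexes there, but 7 of the 11 fits that left out 1 library lost the Srm call and 1 lost the Sat1 call. With the compared groups alone neither passed (adjusted p = 0.18 for Srm and 0.051 for Sat1), and without all doubted libraries Sat1 did not (-0.60, adjusted p = 0.055).

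Whether age acted differently by sex was tested as the male minus the female change between 28 and 6 months in batch 1. None of the 9 members passed by edgeR, against 0.329% of all genes. In edgeR's test 6 had an unadjusted p under 0.05, all with a lower value in males. DESeq2 called 1, Smox (-1.83, adjusted p = 0.010). No share of all genes is given for these 2 counts. Smox came nearest by edgeR (-1.81, SE 0.46, adjusted p = 0.056), followed by Srm (-0.73, SE 0.24, adjusted p = 0.16) and Odc1 (-0.73, SE 0.29, adjusted p = 0.25). Without the doubted libraries these 3 passed as lower, against 1.63% of all genes, at -2.20 (adjusted p = 0.012), -1.05 (adjusted p = 0.035) and -1.17 (adjusted p = 0.035). When 6-month male replicate 1 was left out too, 1 member passed. Oaz1 was at -0.07 (95% interval -0.46 to 0.32) in the same comparison.

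CaAKG feeding moved no polyamine gene past the threshold. In CaAKG males against control males of 28 months, batch 2, edgeR called 0 of 9 members, against 0.0659% of all genes, with 0 at an unadjusted p under 0.05 and 0 by DESeq2. Amd1 had lowest, median and highest values of 64, 80.5 and 133 CPM in CaAKG males, against 65.8, 96.2 and 173 CPM in control males. Odc1 had 77.4, 122.8 and 147 CPM in CaAKG males, against 79.7, 111.4 and 192 CPM in control males. For Smox the values were 8.84, 11.8 and 23.8 CPM in CaAKG males and 8.29, 10.6 and 22.9 CPM in control males. The groups overlapped for each of the 9 genes. These ranges include the doubted libraries, CaAKG replicates 6, 7, 8 and 10 and control male replicate 4. Without them the Amd1 mean was 86.3 CPM in CaAKG males (n = 8) and 102 CPM in control males (n = 9). In the same order the means were 127 and 116 CPM for Odc1, and 12.4 and 13.0 CPM for Smox. The difference closest to the threshold was Azin1, at -0.17 (SE 0.12, adjusted p = 0.92). The 95% intervals of the log2 difference were -0.59 to 0.11 for Amd1, -0.25 to 0.29 for Odc1, -0.41 to 0.45 for Smox and -0.12 to 0.25 for Oaz1.

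Amd1 and Smox were high together in the same males. Over the 36 control males the pair had a Pearson correlation of 0.85 and a Spearman correlation of 0.66 on log2 CPM, and of 0.73 (Spearman) after each group's mean was removed. Without the 2 males farthest from the median of Amd1 the Pearson correlation was 0.72. In the 29 females it was 0.30 (Spearman 0.23, and 0.47 after each group's mean was removed), and 0.16 without the 2 farthest. As examples, 6-month male replicate 4 had 334 CPM of Amd1 and 88.1 CPM of Smox, 28-month male replicate 13 of batch 1 had 189 and 31.2 CPM, and 6-month female replicate 4 had 139.6 and 31 CPM. In other female groups the top mice differed: 28-month female replicate 3 of batch 2 had the highest Amd1 of its group, 88.5 CPM, and the lowest Smox, 8.28 CPM. In 28-month batch 1 the other 4 males stayed between 66.1 and 74.9 CPM of Amd1 and between 9.65 and 11.5 CPM of Smox. These are descriptions over libraries that share tissue and processing.

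**Figure D4:**
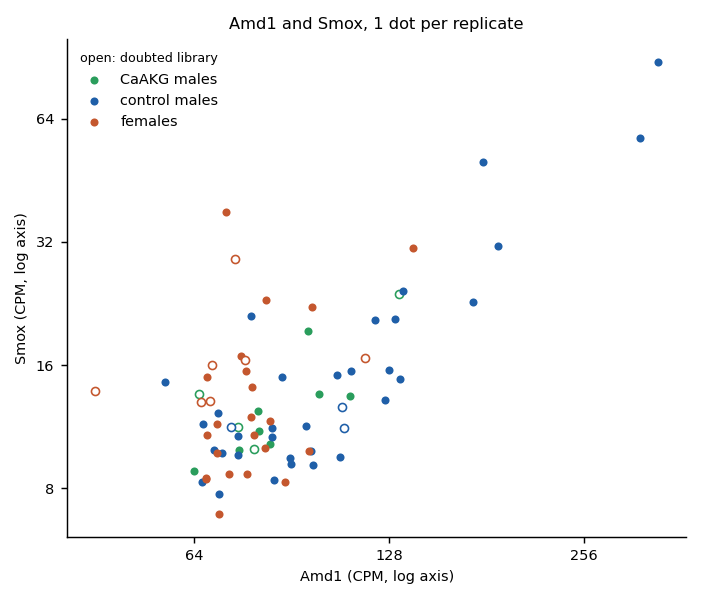
Smox (y axis, CPM, log scale) against Amd1 (x axis, CPM, log scale), 1 dot per replicate, with CaAKG males in green, control males in blue, females in orange and doubted libraries open. The 3 control males of 6 months with Smox above 50 CPM also have Amd1 above 170 CPM.

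The genes whose levels followed each member most closely over the 77 replicates were looked up among 11960 named genes. For Oaz1 they were Psmb6, a proteasome subunit, Cisd1, a mitochondrial outer membrane protein, and Cox14, a factor of cytochrome oxidase assembly, with Spearman correlations of 0.97, 0.96 and 0.96. For Oaz2 they were Ak1, the muscle adenylate kinase (0.91), Hfe2 (0.88) and Mlf2 (0.88), and for Odc1 the proteasome subunit Psmd8 (0.84), Plekho1 (0.79) and Ubxn1 (0.79). Srm was closest to Mri1 of the methionine salvage route (0.86), the ribosomal protein gene Rpl10 (0.85) and the cell cycle kinase gene Cdk4 (0.84), and Sat1 to Rpl10 (0.75), Nhp2 (0.74) and Snhg15 (0.74). Smox was closest to Cib2 (0.79), Tspan8 (0.76) and Pvalb, the calcium buffer of fast fibres (0.74). Azin1 was closest to Osbpl8 (0.75), Pds5a (0.74) and Fbxw7 (0.74), and among the genes closest to Sms were Dnaja2 (0.71) and Ccdc91 (0.71). Amd1 had Tigar at 0.64, Galnt1 at 0.63 and its copy Amd2 at 0.62. These values pool groups whose means differ. After each group's mean was removed they were 0.82 to 0.83 for Oaz1, 0.70 to 0.83 for Oaz2, 0.64 to 0.84 for Odc1, 0.60 to 0.62 for Amd1, 0.52 to 0.63 for Smox, 0.52 to 0.55 for Azin1, 0.49 to 0.50 for Srm and 0.39 to 0.53 for Sat1, and for the pair named beside Sms 0.66 and 0.72.

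Of 44 other genes of the pathway (substrate supply, methionine salvage, transport, regulation and the hypusine branch, in which spermidine modifies the translation factor eIF5A), 37 were tested. At 20 against 6 months 7 of the 37 were higher and 11 lower in males, where 22.6% and 22% of all genes were higher and lower. In females 7 were higher and 10 lower, against 18.2% and 17.8% of all genes. Among those with the smallest p in either sex were Eif5a, at -0.82 (adjusted p = 1.1e-12) in males and -0.69 (adjusted p = 1.0e-07) in females, and Dohh, the hydroxylase that completes hypusine, at -1.20 (adjusted p = 3.1e-12) and -1.23 (adjusted p = 2.8e-09). Dhps, the deoxyhypusine synthase, was at -0.84 (adjusted p = 1.1e-09) in males and -0.82 (adjusted p = 8.0e-07) in females. Mtr, the methionine synthase, was higher at 1.24 (adjusted p = 9.7e-14) in males and 1.19 (adjusted p = 1.3e-09) in females. Slc7a1, a carrier of arginine and lysine, was at 1.79 (adjusted p = 1.6e-07) in females and 1.31 (adjusted p = 4.5e-07) in males.

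At 28 against 6 months 3 of the 37 were higher and 7 lower in males, against 6.76% and 9.38% of all genes. The leading ones were Eif5a (-0.49, adjusted p = 4.8e-04), Mtr (0.62, adjusted p = 6.8e-04), the methionine salvage gene Apip (-0.56, adjusted p = 0.0016) and Dohh (-0.54, adjusted p = 0.0077). In females 6 were higher and 4 lower, against 9.91% and 9.04% of all genes. The leading ones were Apip (-0.66, adjusted p = 5.4e-04), the transporter subunit Slc3a2 (0.93, adjusted p = 0.0022), the arginine carrier Slc7a2 (1.15, adjusted p = 0.0035) and Myc (2.06, adjusted p = 0.0042), a transcription factor of which Odc1 is a known target. The Slc7a2 call was lost without 28-month female replicate 9 (0.31). The offsets ended the calls of Mtr and Eif5a at 20 months in females and of Slc7a2 at 28 months in females. In males they ended those of Eif5a, Mtr and Dohh at 28 months. With the compared groups alone the 28-month female calls of Apip, Slc3a2, Slc7a2 and Myc were lost. The replicate block ended the 28-month female call of Slc7a2 and the 28-month male calls of Eif5a, Mtr, Apip and Dohh. At 12 months 0 were higher and 2 lower in males, against 3.02% and 6.82% of all genes: Amd2 (-1.75, adjusted p = 0.0016) and Arg1, the liver-type arginase. Amd2 had a mean of 0.895 CPM in 12-month males and 3.02 CPM in 6-month males. Its reads are split from those of Amd1 by estimate, so its call cannot be taken as independent of the Amd1 call. The mean of Arg1 was 0.0312 CPM in 12-month males and 4.93 CPM in 6-month males, and its call was lost without 6-month male replicate 1 (-0.75), with DESeq2 and with the replicate block. In 12-month females edgeR called 0 of the 37, with 3 at an unadjusted p under 0.05. With CaAKG it called 0 of 37 as well, with 6 at an unadjusted p under 0.05. Neither count was repeated with DESeq2.

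Against 20 months, females of 28 months in batch 1 had 11 of the 37 higher and 3 lower, against 17.3% and 12.6% of all genes. The leading ones were Mtr (-0.84, adjusted p = 8.2e-07), the argininosuccinate lyase gene Asl (0.98, adjusted p = 9.2e-06), Dohh (0.79, adjusted p = 2.2e-05) and Mri1 (0.62, adjusted p = 3.9e-05). Males had 4 higher and 3 lower, against 8.25% and 8.78% of all genes. The leading ones were Mtr (-0.62, adjusted p = 1.8e-04), Dohh (0.65, adjusted p = 3.1e-04), Slc7a2 (-1.17, adjusted p = 5.6e-04) and Mri1 (0.43, adjusted p = 0.0034). These comparisons share the 20-month mice with those of 20 against 6 months. With the offsets the Mtr call ended in both sexes, and in males so did those of Dohh, Slc7a2 and Mri1. Between the sexes, averaged over the strata, males had 2 higher and 3 lower, against 3.92% and 2.59% of all genes. The leading ones were Asl (-0.37, adjusted p = 3.9e-04), Mat2b (0.18, adjusted p = 0.0047), Mtr (0.22, adjusted p = 0.0075) and Mri1 (-0.17, adjusted p = 0.022). The sex call of Mtr was lost without the sex-mismatched libraries, and those of Mat2b and Mri1 with the offsets.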

How the data were processed

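Soleus RNA was sequenced in 78 libraries. The authors deposited 1 table of expected counts per gene, made with STAR 2.7.11b and RSEM 1.3.3 on mm10 after FastQC, per the submitters' processing notes; annotation release and strand setting: not given in the sources used here. Expected counts (8.99% not whole) were rounded. Columns that matched no sample label, 55 in all, were not used. A pair of libraries that carry the same animal tag at 12 months in females was summed, leaving 77 replicates in 11 groups. RSEM shares reads among near-identical copies by estimate, so members with copies (Amd1, Oaz1, Sms) are uncertain to that extent.

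Library sizes were scaled by TMM. Genes passed filterByExpr with a minimum count of 10 and a minimum total of 15, leaving 18218. edgeR 4.0.16 (R 4.3.3, limma 3.58.1) fitted 1 quasi-likelihood model over the 11 groups, with Benjamini-Hochberg adjusted p under 0.05 over all genes tested as the threshold in 18 comparisons. Intervals are log2 fold change ± 1.96 SE. DESeq2 1.42.0, other scalings and filters, offsets for length and GC (97.5% of genes had both), left-out libraries and the replicate number as a block were tried as alternatives. The labels do not say that replicate numbers mark litters or days, so p-values measure the spread between these samples. The fit was tested on simulated data. The members and all lists were chosen with earlier results of these data known. All 9 members are named; of the other pathway genes, up to 4 with the smallest p among those past the threshold per comparison, given in both sexes where one sex puts them there; and for each member the 3 genes with the highest Spearman correlation of log2 CPM (prior count 2), leaving out symbols that are clone or accession names (for Sms, one of them is not reported here). Gene coordinates are those of mm10. Promoter windows are from RefSeq (GRCm38.p6).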

Additional observations from a re-analysis of the deposited data

Results flagged for a closer look

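Each member was looked at in each group of 4 to 10 replicates, 90 sets in all. In 11 of these sets, over 7 genes, the highest or lowest replicate stood apart from its group (gap to the nearest replicate over the group's range). The cutoff gives about 1 in 20 sets for independent, normal values. Members measured in the same libraries are not independent, and the same libraries recur below, so that rate is no yardstick here. In 6-month male replicate 1, Odc1 was at 323.93 CPM, Srm at 29.298 CPM and Azin1 at 102.41 CPM, each the highest of its group. This is the replicate with the high macrophage sum. Over the 77 replicates the Spearman correlation with that sum was -0.05 for Odc1, 0.25 for Srm and -0.07 for Azin1. The part of the sum in these values was not tested.

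In 28-month male replicate 13 of batch 1, Amd1 was at 188.67 CPM and Smox at 31.232 CPM, and in 6-month female replicate 4 Amd1 was at 139.65 CPM and Smox at 31.008 CPM, each the highest of its group. Sat1 was highest in 28-month male replicate 11 of batch 1, at 23.588 CPM, and lowest in 6-month female replicate 1, at 17.441 CPM. Odc1 stood apart in 28-month control male replicate 1 of batch 2, at 192.32 CPM. Oaz2 was lowest in 12-month female replicate 5, at 134.59 CPM, a library with skin transcripts.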

How the results depend on the processing

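Of the 37 member calls, 0 changed direction under any of 12 other settings. The counts of members called that moved by over 1.5 times are given here, and the cause was not tested. Shares of all genes under these settings are given only where the Results print them. At 28 against 6 months in females (1), the count was 0 when the 5 sex-mismatched libraries, the 9 skin or marrow libraries, or both sets were left out, when 6-month male replicate 1 was dropped as well (a setting chosen after seeing the data), and when the fit held the compared groups alone. In males (7) it was 3 with the compared groups alone. At 12 months in males (3) it was 5 without the sex-mismatched libraries or without both sets, and 0 with the compared groups alone. At 20 months in females (5) it was 1 with the offsets. At 28 against 20 months in females (4) it was 7 without both sets, also without 6-month male replicate 1, and 2 with the offsets; in males (1) it was 2 with RLE factors, with DESeq2 or without the sex-mismatched libraries, 3 without the skin or marrow libraries or both sets, 4 without 6-month male replicate 1 as well, 5 with the compared groups alone and 0 with the offsets. For sex averaged over strata (2) it was 1 without the skin or marrow libraries. At 6 months between the sexes (0) it was 1 with DESeq2, without the sex-mismatched libraries or without both sets and 6-month male replicate 1, and 2 without both sets. In batch 1 at 28 months between the sexes (2) it was 1 without a filter, without the skin or marrow libraries, without both sets, also without 6-month male replicate 1, or with the offsets, and 0 with the compared groups alone. For the interaction (0) it was 1 without mitochondrial genes, with the animal-tag libraries apart, without either set, without both and 6-month male replicate 1, or with DESeq2, and 3 without both sets. Between batches it was 1 with the offsets in females (4), and 1 without both sets and 6-month male replicate 1 or with the compared groups alone in males (0).

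With the replicate number as a block the counts were 0 at 28 against 6 months in females and 0 in males, 0 at 28 against 20 months in males, 1 for sex averaged, 0 for sex at 28 months in batch 1 and 2 between batches in females. Between replicates with the same number the deviations had correlations between -0.18 and 0.23, and no comparison had every pair over 0.1. With CaAKG 3 of 10 pairs were over 0.1. Weak sharing would also give such values, so they cannot decide what the numbers mark. The comparisons of 28 months with younger ages and between batches share 0 numbers. Leaving out 1 replicate at a time gave 0 to 2 at 28 months in females, 4 to 7 in males, 5 and 8 in each fit at 20 months in females and males, 0 at 12 months in females, 2 to 4 in males, 4 to 5 at 28 against 20 months in females, 1 to 2 in males, 0 with CaAKG, 2 to 3 for sex averaged, 0 to 1 at 6 months, 0 to 2 at 28 months in batch 1, 0 at the other ages, 0 to 1 for the interaction, and 4 in females and 0 in males between batches. The median of all genes moved by over 0.1 with the offsets at 20 months in males (-0.11). Counts in each replicate were at least 201 for every member.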
